A study of Mus musculus with 8 samples.

Results

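The Polycomb repressive complex genes are described here in leukemic stem cells (LSCs) from a mouse model of chronic myeloid leukemia (CML), with and without treatment by a tyrosine kinase inhibitor (TKI). The rows were chosen by gene symbol, with no measured value in the rule. All 10 listed genes (Ezh1, Ezh2, Eed, Suz12, Jarid2, Bmi1, Ring1, Rnf2, Cbx7 and Phc1) were found among the 15576 symbols of the count table and among the 11937 genes that passed the filter on low counts. Each had more than the floor of 3 counts in every library.

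The mice carried the BCR-ABL and SCL-tTA transgenes on a C57BL/6 background, so that the SCL enhancer drives BCR-ABL in stem and progenitor cells once tetracycline is withdrawn. Both groups carried the oncogene. The CML group (4 libraries) was untreated, and the CML-TKI group (4 libraries) received imatinib at 400 mg/kg by gavage on alternate days for 4 weeks according to the labels, whose protocol text says 30 days. The study's legend for the LSC RNA-seq gives a lower dose, in conflict with the labels, and its methods give both doses. The ages of the animals are not given in the sources used here, and nothing states that each library came from a separate animal, so p-values measure the spread between libraries. The labels give a CD150-negative, CD48-positive gate for both groups, whereas the study's figure legends define LSCs by the opposite pattern. In TMM-normalized CPM (counts scaled to library size), means for CML against CML-TKI LSCs (± SD, n = 4 each) were 32.4 ± 3.74 against 3.33 ± 2.74 for Slamf1, the CD150 gene, and 5.05 ± 1.24 against 103.3 ± 56.9 for Cd48. The transcripts of the CML libraries thus followed the study's definition and went against the labelled gate, and those of the CML-TKI libraries followed the labelled gate and went against the study's definition. Both groups are called LSCs below as a name from the study only, and a difference in sorted cells and an effect of treatment cannot be told apart. One CML column carries the number 5, absent from the labels, and this library is named CML 5 below.

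Total counts ranged from 4939644 to 8620101 in the CML libraries and from 1041552 to 5104268 in the CML-TKI libraries. CML-TKI 3 was the shallowest, and 3 counts in it equal 3.29 CPM, against 0.409 to 0.930 CPM in the other libraries. CML 5 stood apart from the other CML libraries by transcript length. Its median deviation from the mean log2 CPM of the other CML libraries was 0.48 for genes with the shortest transcripts (lowest quartile, up to 2099 bases) and -0.57 for those with the longest (highest quartile, 4747 bases and more). RNA levels of cell type marker genes differed between the groups. Of all tested genes, 6.29% were higher and 3.93% lower in CML-TKI LSCs at the threshold used throughout (adjusted p under 0.05), against which the counts of marker genes are to be read. The summed level of 11 granulocyte genes was 153.3 to 256 CPM in CML LSCs and 1466 to 8505 CPM in CML-TKI LSCs, with 10 of 11 past the threshold upward. That of 6 monocyte and macrophage genes was 225 to 296 CPM and 1048 to 5083 CPM, with 6 of 6 upward. That of the 9 tested stem cell genes, of 10 listed, was 1123 to 1413 CPM and 27 to 389 CPM, with 4 of 9 downward. That of 7 megakaryocyte genes was 1261 to 1524 CPM and 62.3 to 611 CPM, with 2 downward. The 6 erythroid genes (0 called, summed level 141 to 238 CPM in CML LSCs) reached 31601 CPM in CML-TKI 3, and 1 of 6 B lymphoid genes could be tested (0 called). In bulk samples, fewer cells of a type and less RNA per cell cannot be told apart. The part of these differences in the values below was not tested.

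Polycomb proteins keep developmental genes silent. Polycomb repressive complex 2 (PRC2) places methyl groups on lysine 27 of histone H3 through its catalytic subunit, EZH1 or EZH2, held together with EED and SUZ12. Polycomb repressive complex 1 (PRC1) ubiquitinates histone H2A through RING1 or RNF2 paired with a PCGF protein such as BMI1, and in its canonical form reads the PRC2 mark through a CBX protein and compacts chromatin through a PHC protein. In blood, BMI1 and EZH1 are known for their roles in stem cell self-renewal, and EZH2 is typically high in dividing cells and EZH1 in non-dividing ones.

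The promoter windows of Ezh2, Suz12 and Ezh1 are shown because the first 2 are the members whose window holds an E2F-type word, a choice made after the matches were seen, and Ezh1 is the paralog of Ezh2. Eed, which like Ezh2 and Suz12 had a higher mean level in CML-TKI LSCs, has no such word in its window. The windows shown are RefSeq sequences of GRCm38.p6 (mm10), 250 bases before to 50 after a start in that annotation, read in the direction of transcription. Capitals mark an E2F-type word (TTTCCCGC, TTTCGCGC, TTTGCCGC or TTTGGCGC) or CCAAT, each searched on both strands, so that CCAAT on the opposite strand reads ATTGG. The windows lie at chr6:47594981-47595280 (minus strand, Ezh2), chr11:79992856-79993155 (plus strand, Suz12) and chr11:101226414-101226713 (minus strand, Ezh1). The Ezh2 window lies almost wholly inside the span of its gene (47530274 to 47595270), so its start is not the 5' end of that span. The Cbx7 window, which is not shown, also lies inside the span of its gene.
Ezh2: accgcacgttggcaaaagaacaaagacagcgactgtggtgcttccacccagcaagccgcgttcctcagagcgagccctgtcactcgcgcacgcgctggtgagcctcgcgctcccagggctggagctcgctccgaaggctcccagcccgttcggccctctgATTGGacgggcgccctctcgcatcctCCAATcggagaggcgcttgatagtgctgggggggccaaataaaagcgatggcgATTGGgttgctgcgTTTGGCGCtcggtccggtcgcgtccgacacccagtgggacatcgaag
Suz12: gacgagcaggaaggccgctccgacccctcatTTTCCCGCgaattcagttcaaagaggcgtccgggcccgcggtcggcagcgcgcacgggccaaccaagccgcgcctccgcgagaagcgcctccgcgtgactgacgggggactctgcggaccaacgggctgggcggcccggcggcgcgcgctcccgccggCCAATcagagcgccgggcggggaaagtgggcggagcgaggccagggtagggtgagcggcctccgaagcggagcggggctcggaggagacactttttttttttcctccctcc
Ezh1: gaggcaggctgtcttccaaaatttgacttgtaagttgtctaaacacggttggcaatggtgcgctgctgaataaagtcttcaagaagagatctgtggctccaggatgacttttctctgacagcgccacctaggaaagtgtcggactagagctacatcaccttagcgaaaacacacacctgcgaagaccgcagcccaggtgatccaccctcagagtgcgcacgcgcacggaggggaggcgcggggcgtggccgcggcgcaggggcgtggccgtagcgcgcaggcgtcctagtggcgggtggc
The Ezh2 window held 1 E2F-type word, starting at base 4 counted from the start on which that window rests, and 3 CCAAT matches. The Suz12 window held 1 E2F-type word, starting 219 bases before the start, and 1 CCAAT match. The Ezh1 window held neither. All 10 members matched this RefSeq table, with 2 windows for Jarid2. The other 7 held no E2F-type word, so that 2 of 10 members had one, and 5 of 10 (Ezh2, Suz12, Eed, Jarid2 and Cbx7) had CCAAT. Of 32851 windows of the same length in the mouse table, 2.26% held an E2F-type word and 37.4% held CCAAT. A match is a description of these letters and not evidence of a bound factor.

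When treated and untreated LSCs were compared, 0 of the 10 members had an adjusted p under 0.05 in edgeR's quasi-likelihood fit (Benjamini-Hochberg over all tested genes), where 10.2% of all tested genes did. At an unadjusted p under 0.05 there were 4 members (Ezh2, Eed, Suz12 and Phc1), against 25.7% of all tested genes. DESeq2 called 1 member, Ezh2, where it called 18.1% of all tested genes, and limma-voom called 1, Phc1, where it called 21.3%. The groups did not overlap for 4 members, of which Ezh2 and Eed were higher and Ring1 and Phc1 lower in every CML-TKI library, against 23.4% of all tested genes without overlap. After the libraries were thinned to the smallest total, 0 of 9 tested members were without overlap, where 20.9% of all tested genes were. The log2 fold changes of CML-TKI over CML LSCs ran from -1.18 (Phc1) to 0.74 (Suz12), with 3 above 0 and 7 below. Their median size without sign was 0.72, against 0.52 over all tested genes. The intervals of the single differences were wide, so a p that missed the threshold does not show that levels were alike.

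**Figure D1:**
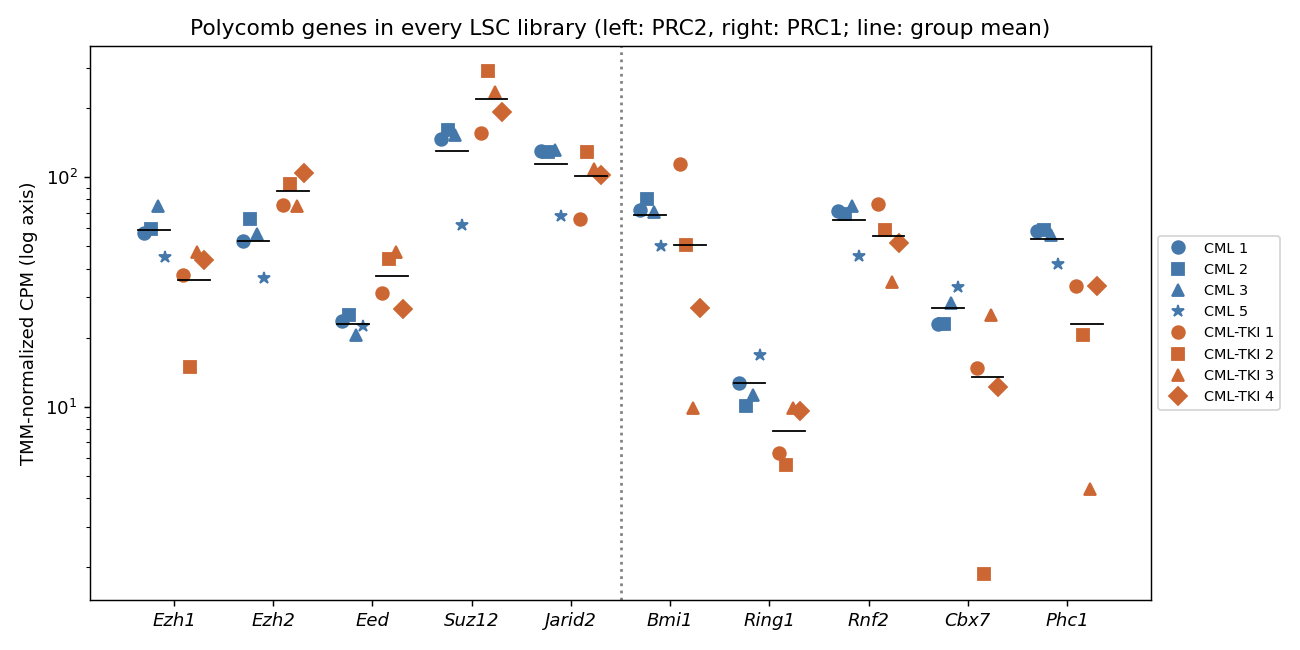
TMM-normalized CPM (log axis) of each Polycomb gene in the 4 CML (blue) and 4 CML-TKI (orange) libraries, 1 point per library, with the mean of each group as a line. Ezh2 and Eed lie higher and Ring1 and Phc1 lower in every CML-TKI library, while Bmi1 and Cbx7 spread over more than 10-fold among the CML-TKI libraries.

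The catalytic subunits of PRC2 lay on opposite sides of 0. Ezh2, on chromosome 6 from 47530274 to 47595270, had 53, 66, 56.4 and 36.4 CPM in CML 1, 2, 3 and 5. In CML-TKI 1 to 4 it had 76, 93.3, 74.5 and 104 CPM. Every CML-TKI library was above every CML library, with the narrowest gap between CML 2 and CML-TKI 3, whose counting intervals overlap (59.2 to 73.4 and 57.9 to 94.5 CPM, exact Poisson, 95%). The log2 fold change of Ezh2 was 0.72 (standard error 0.24, 95% interval 0.18 to 1.26, a fold of 1.65, adjusted p = 0.0905), the lowest adjusted p of the members and the only one under 0.1. Without CML 5, the library with the least Ezh2, it was 0.57.

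Ezh1, on chromosome 11 from 101191115 to 101226463, had 57.1, 59.3, 75 and 44.8 CPM in CML 1, 2, 3 and 5. In CML-TKI 1 to 4 it had 37.4, 14.9, 47.1 and 43.4 CPM. The groups overlapped, since CML-TKI 3 lay above CML 5, and CML-TKI 2 was the lowest library. Its log2 fold change was -0.74 (standard error 0.36, 95% interval -1.53 to 0.058, adjusted p = 0.228), and -0.48 without CML-TKI 2.

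A ratio of both genes within a library does not depend on how the libraries were scaled. The log2 ratio of Ezh2 to Ezh1 (CPM) was -0.11, 0.16, -0.41 and -0.30 in CML 1, 2, 3 and 5. It was 1.02, 2.65, 0.66 and 1.26 in CML-TKI 1 to 4. The libraries of the groups did not overlap, with means of -0.17 ± 0.25 for CML and 1.40 ± 0.87 for CML-TKI (SD, n = 4 each). The difference between the means was 1.56, and it ran from 1.15 to 1.81 when single libraries were dropped. The ratio was set up with the levels of both genes in view and is given as a description, with no test. Per kilobase of the longest coding transcript, Ezh2 had 1.14 to 1.68 times the level of Ezh1 in the CML libraries and 2.39 to 9.47 times in the CML-TKI libraries.

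For the ring-finger pair of PRC1, the log2 ratio of Rnf2 to Ring1 was 2.49, 2.78, 2.74 and 1.44 in CML 1, 2, 3 and 5. It was 3.60, 3.40, 1.83 and 2.43 in CML-TKI 1 to 4. Here the groups overlapped, and the lowest value was that of CML 5.

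**Figure D2:**
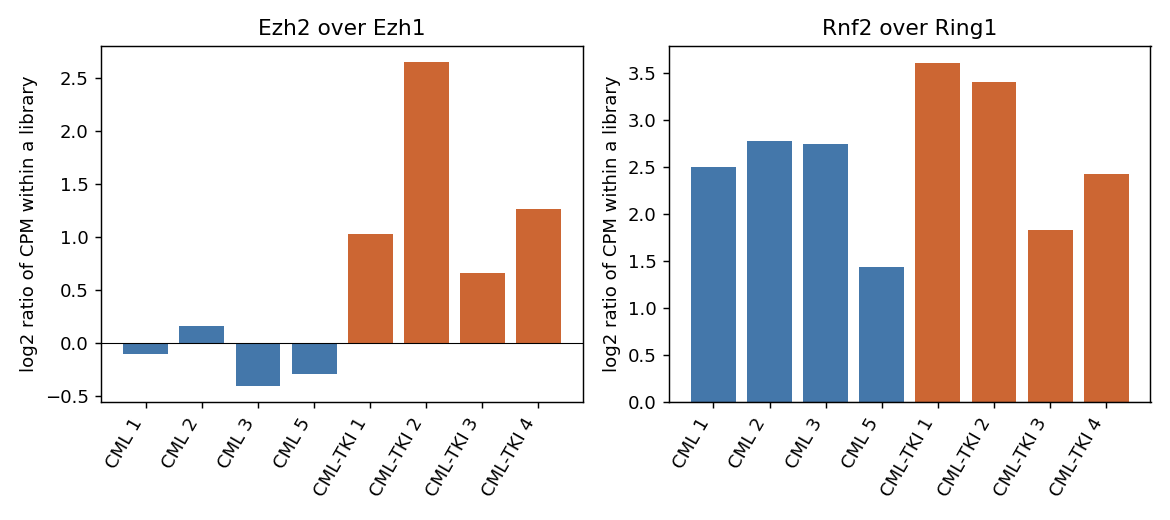
The log2 ratio of CPM within each library for the PRC2 catalytic pair (Ezh2 over Ezh1, left) and the PRC1 ring-finger pair (Rnf2 over Ring1, right), 1 bar per library, CML in blue and CML-TKI in orange. Ezh2 over Ezh1 stays at or below 0.16 in the CML libraries and at or above 0.66 in the CML-TKI libraries, while Rnf2 over Ring1 overlaps.

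The core partners of the catalytic subunit both had positive log2 fold changes. Eed, which binds the methylated histone tail and activates the enzyme, lies on chromosome 7 from 89954654 to 89980976. It had 23.7, 25.1, 20.5 and 22.4 CPM in CML 1, 2, 3 and 5, and 31.3, 44, 47.1 and 26.5 CPM in CML-TKI 1 to 4. The groups did not overlap, with CML-TKI 4 closest to the CML libraries. The gap between CML 2 and CML-TKI 4 was within counting error, with exact Poisson 95% intervals of 21 to 29.8 and 21.6 to 32.2 CPM. The estimate for Eed was a log2 fold change of 0.69 (standard error 0.28, 95% interval 0.071 to 1.31, adjusted p = 0.149).

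Suz12, the scaffold of PRC2 on chromosome 11 from 79993106 to 80034123, had the same sign, with an overlap of the groups. It had 146, 161, 153 and 62.1 CPM in CML 1, 2, 3 and 5, and 156, 289.8, 236 and 191.5 CPM in CML-TKI 1 to 4. CML-TKI 1 lay below CML 2, and CML 5 lay far below the other CML libraries. For Suz12 the log2 fold change was 0.74 (standard error 0.33, 95% interval 0.014 to 1.46, adjusted p = 0.186), and 0.50 without CML 5.

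Jarid2, an accessory subunit that helps PRC2 bind chromatin, lies on chromosome 13 from 44730774 to 44921643. It had 130.5, 128, 131 and 67.8 CPM in CML 1, 2, 3 and 5, and 65.9, 128, 108.5 and 102.5 CPM in CML-TKI 1 to 4. CML 5 and CML-TKI 1 were the low libraries, at about the same level. Jarid2 thereby showed a log2 fold change of -0.18 (standard error 0.29, 95% interval -0.82 to 0.46, adjusted p = 0.747). Among fits that each dropped 1 library it ran from -0.37 (CML 5) to -0.020 (CML-TKI 1). Per kilobase, Suz12 was the most abundant member in both groups, with a mean of 29.9 CPM in CML and 49.9 CPM in CML-TKI LSCs. Ring1 had the lowest mean in both groups, with 6.23 and 3.85 CPM per kilobase, though Cbx7 was close to it in CML-TKI LSCs (3.99).

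**Figure D3:**
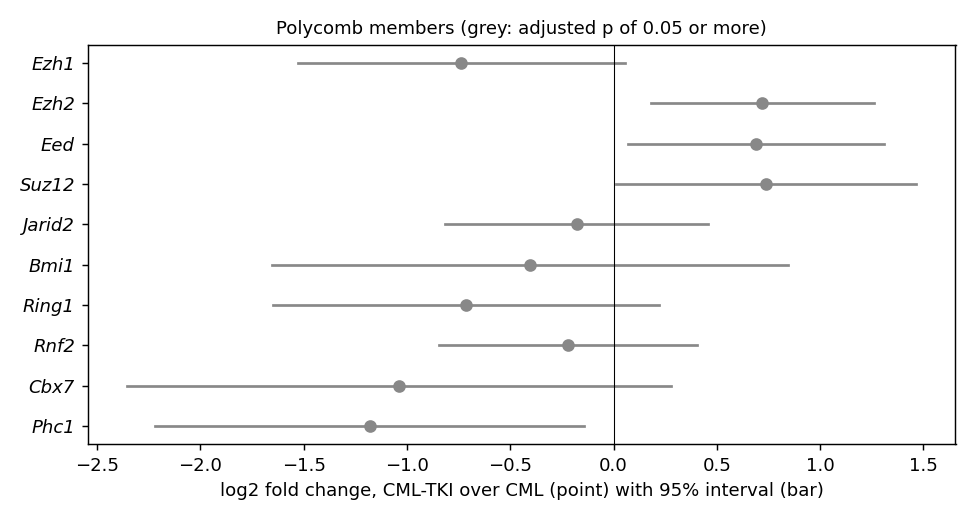
Log2 fold change of CML-TKI over CML LSCs for the 10 Polycomb genes, as points with 95% intervals from the fit to 4 and 4 libraries, all in grey since none had an adjusted p under 0.05. The intervals of Ezh2, Eed, Suz12 and Phc1 lie on one side of 0, and those of the other 6 genes include 0.

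All 5 PRC1 members had log2 fold changes below 0, with 1 of them (Phc1) at an unadjusted p under 0.05. Phc1, on chromosome 6 from 122317731 to 122340227, encodes a polyhomeotic protein that joins PRC1 complexes through its SAM domain. In the edgeR fit to all 8 libraries it had the lowest log2 fold change of the members. That of Cbx7 was lower with limma-voom, with CML 1 to 3 summed, and without CML-TKI 3, alone or together with CML 5. Phc1 had 58.4, 58.7, 56.2 and 42.1 CPM in CML 1, 2, 3 and 5, and 33.6, 20.5, 4.38 and 33.6 CPM in CML-TKI 1 to 4. Every CML-TKI library was below every CML library. The value in CML-TKI 3 rests on 4 counts, and its exact Poisson 95% interval, which covers counting error only, was 1.19 to 11.2 CPM. The estimate for Phc1 was a log2 fold change of -1.18 (standard error 0.47, 95% interval -2.22 to -0.14, adjusted p = 0.141), and -0.87 without CML-TKI 3.

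Cbx7, a reader of the PRC2 mark, lies on chromosome 15 from 79915804 to 79971143. It had 22.9, 23, 28.2 and 33.1 CPM in CML 1, 2, 3 and 5, and 14.8, 1.86, 25.2 and 12.2 CPM in CML-TKI 1 to 4. CML-TKI 3 lay within the CML range, and CML-TKI 2, with 6 counts, lay far below every other library. For Cbx7 the log2 fold change was -1.04 (standard error 0.59, 95% interval -2.35 to 0.28, adjusted p = 0.305), and dropping a library gave -0.67 (CML-TKI 2) to -1.45 (CML-TKI 3). Cbx7 overlaps Apobec3 on the genome and the counting is not stated to use strand, so its counts are uncertain.

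Bmi1, the PCGF partner of the ring-finger ligases on chromosome 2 from 18677018 to 18686629, varied most within a group relative to its mean. It had 71.8, 80.3, 70.5 and 50.2 CPM in CML 1, 2, 3 and 5, and 114, 50.8, 9.86 and 26.8 CPM in CML-TKI 1 to 4. The CML-TKI libraries lay on both sides of the CML libraries, and the highest held 11.6 times the level of the lowest, against a coefficient of variation of 18.7% in CML and 90.7% in CML-TKI LSCs. The lowest, CML-TKI 3, had 9 counts (exact Poisson 95% interval 4.51 to 18.7 CPM). CML-TKI 1, with the most Bmi1, also had the highest summed level of the stem cell genes of its group (389 against 27 to 84.4 CPM) and the lowest of the granulocyte genes. The part of this in the Bmi1 level was not tested. The log2 fold change was -0.40 (standard error 0.56, 95% interval -1.65 to 0.84, adjusted p = 0.703). It became -1.17 when CML-TKI 1 was dropped and -0.078 when CML-TKI 3 was dropped.

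The ring-finger ligases had smaller or poorly resolved differences. Ring1, on chromosome 17 from 34020792 to 34024680, had 12.7, 10, 11.2 and 16.8 CPM in CML 1, 2, 3 and 5, and 6.27, 5.58, 9.86 and 9.63 CPM in CML-TKI 1 to 4. The groups were separate by less than the counting error of CML-TKI 3, whose 9 counts allow 4.51 to 18.7 CPM. Its log2 fold change was -0.71 (standard error 0.42, 95% interval -1.65 to 0.22, adjusted p = 0.321).

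Rnf2, the other ligase, lies on chromosome 1 from 151469398 to 151500991. It had 71.4, 68.9, 75 and 45.5 CPM in CML 1, 2, 3 and 5, and 76.2, 58.9, 35.1 and 51.8 CPM in CML-TKI 1 to 4. The groups overlapped over most of their range. The estimate for Rnf2 was a log2 fold change of -0.22 (standard error 0.28, 95% interval -0.84 to 0.41, adjusted p = 0.675). Dropping CML-TKI 3 gave -0.053, and dropping CML-TKI 1 or CML 5 gave -0.41 or -0.37. The spread among libraries, as a coefficient of variation, was larger in CML-TKI than in CML LSCs for 7 of the 10 members.

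Ezh2 is a gene of dividing cells, so the cell cycle genes are set beside it. Of 15 such genes, 3 (Ccna2, Birc5 and Rrm2) were higher and 0 lower past the threshold, against 6.29% and 3.93% of all tested genes, and their median log2 fold change was 0.40. Their summed level was 2825 to 3644 CPM in CML LSCs and 3726 to 5490 CPM in CML-TKI LSCs. CML 5, the CML library with the least Ezh2, had the lowest summed level. Its single genes went both ways, with 52.7 CPM of Mki67 against 630.3 to 723 CPM in the other CML libraries, but 22.5 CPM of Birc5 against 9.67 to 14.3 CPM. Mki67, with a longest coding transcript of 10061 bases, is among the long genes that were low in CML 5. The part of cell cycle genes in the Ezh2 level was not tested.

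The other genes of the Polycomb and Trithorax systems were read from 6 lists. Of 63 listed genes, 60 were tested, and 1 was higher and 3 were lower past the threshold that 10.2% of all tested genes passed, with a median log2 fold change of -0.14 against -0.00026 over all tested genes. Among 9 tested partners of PRC2, 1 was higher and 0 were lower (median -0.044), against 6.29% and 3.93% of all tested genes. Lcorl, a PRC2 accessory subunit gene, had 43.7, 54.8, 48.9 and 19.7 CPM in CML 1, 2, 3 and 5, and 109.6, 82.4, 84.4 and 93.7 CPM in CML-TKI 1 to 4. The groups did not overlap (log2 fold change 1.15, standard error 0.31, adjusted p = 0.0452). Lcorl overlaps Ncapg and other genes on chromosome 5, so its counts are uncertain. Rbbp4, a histone-binding subunit shared by PRC2 and other complexes, had a log2 fold change of 0.097, and Phf19, a Polycomb-like subunit, had -1.06 without overlap between groups (adjusted p = 0.214).

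Of 10 further canonical PRC1 genes, 0 were higher and 3 were lower past the threshold, against 6.29% and 3.93% of all tested genes. Their median log2 fold change was -0.86. Scml4, of the family of Drosophila Sex comb on midleg, had 32.8, 29.9, 39.2 and 24.2 CPM in CML 1, 2, 3 and 5, and 12.7, 1.86, 7.67 and 8.32 CPM in CML-TKI 1 to 4 (log2 fold change -2.03, standard error 0.51, adjusted p = 0.0329). Scmh1, of the same family, had 38.4 to 46.7 CPM in the CML libraries and 16.3 to 31.8 CPM in the CML-TKI libraries (log2 fold change -1.08, standard error 0.29, adjusted p = 0.0433). Its nearest CML-TKI library was CML-TKI 3. The third relative, Scml2, had a log2 fold change of -1.39 without overlap (adjusted p = 0.140). Cbx6, a chromobox paralog of Cbx7, had 209.8 to 245 CPM in the CML libraries, and 151.8, 65.4, 52.6 and 63.5 CPM in CML-TKI 1 to 4 (log2 fold change -1.39, standard error 0.33, adjusted p = 0.0275). It overlaps Npcd, and its counts are uncertain. Cbx8 and Cbx2, which also encode chromobox proteins, had log2 fold changes of 0.998 (adjusted p = 0.316) and -0.64 (adjusted p = 0.578). The Phc1 paralogs Phc2 and Phc3 had log2 fold changes of 0.14 and 0.097.

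These 4 calls depended on single libraries, while the fold changes moved less. Without CML 1, CML 2, CML 3 or CML-TKI 4, 0 of the other Polycomb genes were called. In those fits the log2 fold changes were -1.42 to -1.28 for Cbx6, -2.07 to -1.92 for Scml4, -1.14 to -1.03 for Scmh1 and 1.14 to 1.30 for Lcorl, and the fits without CML 1, 2 or 3 called 505 to 570 genes in all and that without CML-TKI 4 called 1022. Lcorl was the gene called without CML 5, Scml4 without CML-TKI 2 and Scmh1 without CML-TKI 3. Without CML-TKI 1, 6 were called, Cbx6, Scmh1 and Scml4 among them.

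The remaining lists had 0 genes past the threshold in either direction. They were 19 tested genes of variant PRC1 (median log2 fold change -0.13), 9 of the PR-DUB deubiquitinase that removes the PRC1 mark (median -0.16), the H3K27 demethylase genes Kdm6a and Kdm6b (-0.17 and -0.26), and 11 Trithorax counterparts that act against Polycomb silencing (median -0.13). At an unadjusted p under 0.05 there were 9 of the 60 genes in the 6 lists, against 25.7% of all tested genes. Rybp, which defines variant PRC1, had a mean of 68 ± 12.7 CPM in CML against 114 ± 25.6 CPM in CML-TKI libraries (SD, n = 4 each) without overlap (log2 fold change 0.75, adjusted p = 0.0790), and Men1, Foxk2 and Dcaf7 also did not overlap (-0.60, 0.41 and -0.38, adjusted p = 0.131, 0.207 and 0.252).

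**Figure D4:**
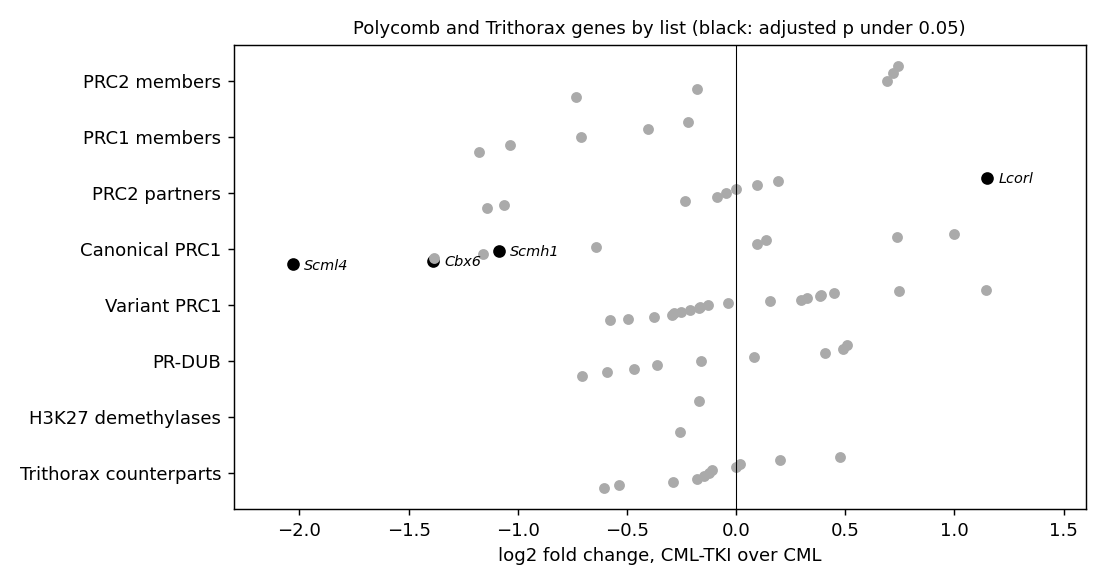
Log2 fold change of CML-TKI over CML LSCs for each tested gene, by list, with black points for an adjusted p under 0.05. The 3 called genes of canonical PRC1 (Scml4, Cbx6 and Scmh1) lie below 0 and Lcorl, of the PRC2 partners, lies above 0, while the 10 members in the upper 2 lists are all grey.

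Genes that Polycomb is known to keep silent were read in the same libraries. Of 10 listed, 9 were in the table and 3 could be tested. Cdkn2a, whose products p16 and ARF stop the cell cycle and which BMI1 represses, had 0 counts in every CML library, and 119, 3, 0 and 0 counts in CML-TKI 1 to 4. The neighbouring Cdkn2b had 0 counts in every CML library and 41, 4, 0 and 0 in CML-TKI 1 to 4. In both, most counts came from CML-TKI 1, the library with the most Bmi1, and at the floor of 3 counts, 0 counts allow up to 3.29 CPM in CML-TKI 3 and up to 0.409 to 0.580 CPM in the CML libraries.

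Cdkn1c, on chromosome 7 from 143458339 to 143461059, encodes the cell cycle inhibitor p57, which is known for its role in stem cell quiescence. It had 62, 41, 63 and 120 counts in CML 1, 2, 3 and 5 (8.44, 7.91, 12.2 and 16.5 CPM), and 8, 0, 0 and 0 counts in CML-TKI 1 to 4. It was lower past the threshold (log2 fold change -4.41, standard error 1.04, adjusted p = 0.0269), a fitted value that rests on 8 counts in the CML-TKI group. Without CML-TKI 1 it was -8.73, a value with 0 counts in the CML-TKI group. Gata3, a lymphoid and stem cell transcription factor gene on chromosome 2 from 9857078 to 9887953, had 81, 52, 46 and 64 counts in CML 1, 2, 3 and 5, and 13, 4, 2 and 9 in CML-TKI 1 to 4. It was lower past the threshold (log2 fold change -2.22, standard error 0.51, adjusted p = 0.0247). Each of these 2 calls was lost when CML 1, CML 2, CML 3 or CML 5 was left out, with adjusted p of 0.0754, 0.0674, 0.0777 and 0.0810 for Cdkn1c and 0.118, 0.0998, 0.0847 and 0.0509 for Gata3. The fold changes stayed close in these fits, from -4.59 to -4.20 for Cdkn1c and from -2.27 to -2.15 for Gata3.

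Hmga2, a chromatin gene of immature cells, had 31, 35, 27 and 24 counts in CML 1, 2, 3 and 5, and 213, 9, 0 and 4 in CML-TKI 1 to 4. Its log2 fold change was 1.24 (standard error 1.14, adjusted p = 0.538) and turned to -1.69 without CML-TKI 1, so its direction rests on that library. Lin28b, a fetal stem cell gene, had 26, 10, 14 and 3 counts in the CML libraries and 0 in every CML-TKI library. The B cell factors Ebf1 and Pax5 and the endodermal factor Gata6 had at most 8 counts in any CML library and reached 26, 47 and 25 counts (28.5, 51.5 and 27.4 CPM) in CML-TKI 3. That library also had the highest level of the 1 B lymphoid gene that could be tested (34 CPM against 13.7 to 20.3 CPM in the other libraries). The summed level of the erythroid genes was highest there too. The part of either in these counts was not tested. Ebf1, Pax5 and Gata6 were below the filter and were not tested.

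**Figure D5:**
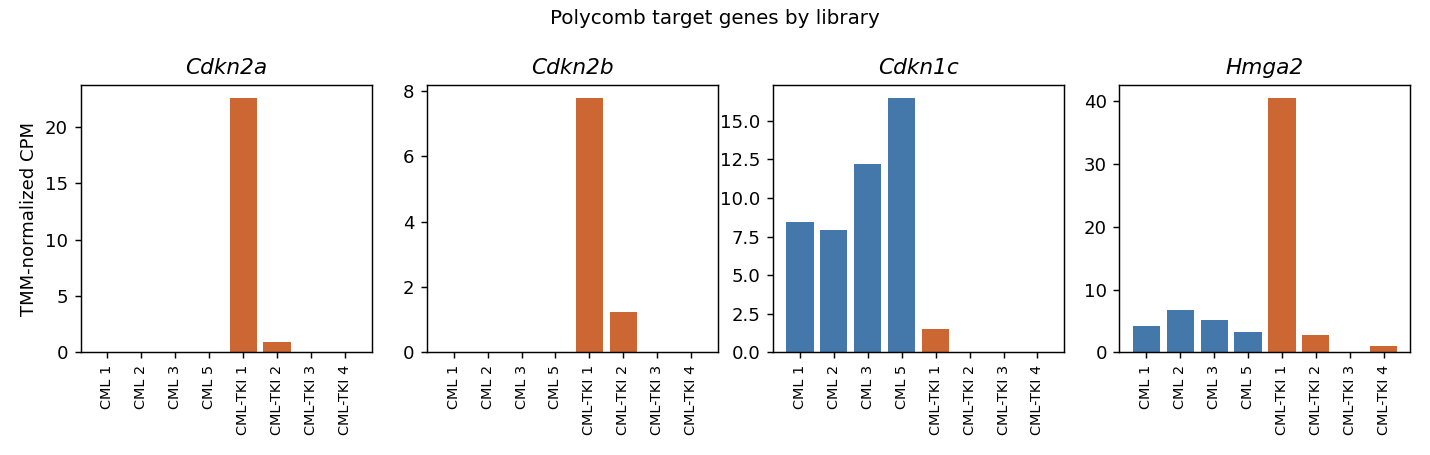
TMM-normalized CPM of 4 known Polycomb target genes in each library, CML in blue and CML-TKI in orange, with a linear axis of its own for each gene. Cdkn2a and Cdkn2b are seen mainly in CML-TKI 1, Cdkn1c mainly in the CML libraries, and Hmga2 is highest in CML-TKI 1.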

How the data were processed

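RNA of 8 LSC samples was measured by bulk RNA-seq. Per the study's methods and the submitters' processing notes, the authors aligned paired reads to mm10 with STAR 2.6.1d and quantified RefSeq transcripts in Partek 8.0; the deposited values are estimated counts per gene, not normalized. The expected (estimated) counts were rounded, normalized by TMM, filtered with filterByExpr (minimum count 10, minimum total 15) and tested over 11937 genes with edgeR 4.0.16 in R 4.3.3 (robust quasi-likelihood, Benjamini-Hochberg threshold 0.05). Standard errors are the log2 fold change over the square root of F, and log2 CPM uses a prior count of 2. DESeq2 1.42.0, limma 3.58.1 (voom), other scalings, filters, thinning and left-out libraries were alternatives. Of the symbols, 20 had become dates.

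The rule for the members uses symbols alone, but the members, lists and tests were chosen with earlier results of these data known. Named genes were all members, listed Polycomb genes past the threshold, up to 6 others without overlap, and targets with at least 10 counts in a library; Rbbp4, Cbx2, Cbx8, Phc2, Phc3, Kdm6a, Kdm6b, the cell cycle genes, Slamf1 and Cd48 were added after values were seen. Coordinates and promoters are from RefSeq (GRCm38.p6), transcript lengths from GENCODE M21. Intervals of counts cover counting error only.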

Additional observations from a re-analysis of the deposited data

Results flagged for a closer look

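In 4 of 24 measures (the 10 member levels and both paralog ratios, in each group of 4 libraries), 1 library lay far from the other 3 by Dixon's test at 95%, where about 1 arises by chance. All 4 were low values in CML 5, and they are not independent, since they come from 1 library. Suz12 was at 5.97 log2 CPM in CML 5 with the nearest CML library at 7.19, Jarid2 at 6.09 with the nearest at 7.01, Rnf2 at 5.52 with the nearest at 6.12, and Phc1 at 5.41 with the nearest at 5.82. CML 5 is also the library with the trend on transcript length given above, and the part of that trend in these values was not tested.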

How the results depend on the processing

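The number of genes past the threshold, 1220, was 2157 with DESeq2, 2544 with limma-voom with quality weights, 122 with CML 1 to 3 summed, and 505 to 2504 with each library left out in turn (lowest without CML 1, highest without CML-TKI 1). The correlation of deviations from the group means was -0.042, 0.097 and 0.093 for libraries of the same replicate number. For libraries of different numbers it ran from -0.139 to 0.099. With so few libraries, these values cannot decide whether the numbers pair the samples. With the replicate block over the 6 numbered libraries 193 genes passed, against 589 in those libraries without a block, an alternative chosen after seeing the data. The count of members, 0, was 1 with DESeq2 (Ezh2, adjusted p = 0.0352), 1 with limma-voom (Phc1, adjusted p = 0.0378), 1 at an adjusted p under 0.1, and 1 with the transcript length trend removed (Ezh2, adjusted p = 0.04996), the last also chosen after seeing the data; it was 0 in every fit with a library left out and 0 with the replicate block. The count of other Polycomb genes, 4, was 2 with total counts, 8 with limma-voom, 0 with the replicate block, 0 in the 6 numbered libraries without a block, 0 with CML 1 to 3 summed, 2 without CML 5 and CML-TKI 3 together (chosen after seeing the data), and 0 to 6 with each library left out. Members without overlap, 4, numbered 0 of 9 when libraries were thinned to the smallest total (20.9% of all tested genes) and 3 to 6 in the other fits counted.

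Jarid2 turned to 0.0061 with CML 1 to 3 summed, and Hmga2 to -1.11 with limma-voom, -0.25 with the replicate block and -1.69 without CML-TKI 1, with a highest value of 1.63 without CML-TKI 4 (fits leaving out 1 library); the cause was not tested. The other 9 members kept their direction under all alternatives run (Ring1 was not tested after thinning), with Ezh2 from 0.49 to 0.86, Eed from 0.52 to 0.83, Suz12 from 0.48 to 0.995, Ezh1 from -1.07 to -0.48 and Phc1 from -1.78 to -0.87. Total counts without Rn45s moved the median of all genes to -0.12. Depth limits Ring1, Bmi1, Phc1 and Cbx7 most, which had 4 to 9 counts in at least 1 CML-TKI library.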
